A study of Homo sapiens with 10 samples.

Results

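Genes of sterol and fatty acid synthesis were followed in the human embryonic stem cell line H1 after short hairpin RNA (shRNA) knockdown of 4 chromatin or transcription factors. The 30 genes were chosen by name as known members of these pathways, with their levels in the same 10 libraries already known, and all 30 were found by symbol among the 14785 rows of the expression table. They comprised 22 sterol genes and 8 fatty acid genes. The p-values given for these genes therefore describe them and are no independent test of the choice.

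The cells were wild type, were transduced with shRNA virus packaged in 293T cells, and were selected with puromycin, so the controls carried the virus and the drug as well. The groups were shSMARCA4, directed at the ATPase of the BAF remodelling complex, shMAFK, directed at a small MAF transcription factor, shE2F6, directed at a repressive E2F family member, shKDM1A, directed at a histone lysine demethylase, and shLUC, directed at luciferase as the control. Each of the 5 groups had 2 libraries of total RNA. The design states biological duplicates but the labels do not describe separate cultures, and they name 1 shRNA treatment per target, so p-values measure the spread between these libraries and differences between hairpins to 1 target were not analysed here.

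Cholesterol is built from acetyl-CoA through the mevalonate pathway, then through squalene and lanosterol to the later sterols. Fatty acids are built from the same precursor by carboxylation, chain synthesis, elongation and desaturation. Both branches are under the SREBP transcription factors, which are held in the endoplasmic reticulum by INSIG proteins when sterols are plentiful and are released to the nucleus when sterols are scarce, so that the genes of the pathway are known to move together.

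The values are the authors' normalized values, whole numbers whose totals lay between 22836548 and 22855295 in every library, so the sequencing depth is unknown. SMARCA4 was listed at 1100 and 985 in the shSMARCA4 libraries and at 7576 to 9296 in the other 8 libraries; E2F6 was at 336 and 304 in shE2F6, below all other libraries; and KDM1A was at 3290 and 1879 in shKDM1A, below all other libraries. MAFK was at 82 in the first library labelled shMAFK but at 216 in the second, inside the range of 212 to 288 spanned by the shLUC libraries, so this transcript does not set the second library apart from the control. All 12 pluripotency markers were in the table, with summed values of 163544 to 291718. The highest sum was that of the first shKDM1A library, in which POU5F1 was listed at 148866 against 16615 to 51684 elsewhere. Values this high took few levels. 148866 was the highest in the table, and the level below it ended at 61943, a log2 step of 1.27 away. The size of this POU5F1 difference is therefore coarse. The first shKDM1A library also stood farthest from its replicate. The standard deviation between replicates over all rows was 0.53 on the log2 scale in shKDM1A and 0.264 to 0.335 in the other 4 groups. Of the 8 endoderm markers only FOXA2 and CER1 were in the table, with summed values of 3146 and 342 in the shSMARCA4 libraries and 0 to 61 elsewhere. No row of the table had a mean under 19.3, and FOXA2 was at 0 to 4 outside shSMARCA4. Its row is thus listed through its shSMARCA4 values, so this contrast is partly set by which rows are listed. The 4 mesoderm markers in the table, of 8, summed to 11089 and 7543 in shSMARCA4 and 2605 to 7552 elsewhere, with KDR as the largest part. EOMES was at 2430 and 724 in shSMARCA4 against 0 to 34 elsewhere, and MIXL1 at 1809 and 132 against 9 to 34. Outside shSMARCA4 both averaged under 19.3, the lowest row mean. As for FOXA2, their contrasts are thus partly set by which rows are listed. KDR, at 6746 and 6647 against 2512 to 7440, and PDGFRA, at 104 and 40 against 73 to 124, overlapped the other libraries. The 2 ectoderm markers, of 8, summed to 1418 to 6197 over all libraries. KRT7, the 1 trophoblast marker in the table, of 8, was at 30 and 44 in shSMARCA4 and 125 to 360 elsewhere. In bulk RNA, fewer cells of a type and less RNA per cell cannot be told apart.

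The sequence before the start site is shown for 6 sterol genes that passed between the SMARCA4 and MAFK knockdowns, to show which known factor motifs lie there, and for SREBF1, which lay on the other side. The stretches are from RefSeq on GRCh38.p14, 5′ to 3′ on the gene's strand, and begin 250 bases before the annotated start; they end where the first GENCODE 29 exon begins. Capitals mark CCAAT, the core of the NF-Y site, or its reverse complement ATTGG.
HMGCS1 (chr5:43313513-43313662, minus strand): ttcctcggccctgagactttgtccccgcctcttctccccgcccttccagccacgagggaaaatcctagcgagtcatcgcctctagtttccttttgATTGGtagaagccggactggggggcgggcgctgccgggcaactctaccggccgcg
IDI1 (chr10:1049171-1049369, minus strand): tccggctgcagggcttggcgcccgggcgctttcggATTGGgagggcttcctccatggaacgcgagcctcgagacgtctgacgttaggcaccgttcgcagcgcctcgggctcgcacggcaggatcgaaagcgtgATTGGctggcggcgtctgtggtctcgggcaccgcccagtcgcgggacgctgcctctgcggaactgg
LSS (chr21:46228825-46229024, minus strand): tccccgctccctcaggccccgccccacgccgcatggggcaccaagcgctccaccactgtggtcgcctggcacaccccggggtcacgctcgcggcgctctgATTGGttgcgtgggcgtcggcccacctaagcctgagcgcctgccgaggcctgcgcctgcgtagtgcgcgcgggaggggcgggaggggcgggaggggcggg
MSMO1 (chr4:165327419-165327622, plus strand): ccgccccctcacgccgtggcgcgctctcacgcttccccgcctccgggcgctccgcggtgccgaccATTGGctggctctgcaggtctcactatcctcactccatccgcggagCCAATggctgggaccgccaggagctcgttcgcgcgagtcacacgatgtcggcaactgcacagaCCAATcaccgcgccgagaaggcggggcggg
INSIG1 (chr7:155297628-155297775, plus strand): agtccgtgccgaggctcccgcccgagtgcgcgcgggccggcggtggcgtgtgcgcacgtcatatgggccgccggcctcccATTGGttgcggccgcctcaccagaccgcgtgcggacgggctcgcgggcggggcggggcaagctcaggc
STARD4 (chr5:111512591-111512785, minus strand): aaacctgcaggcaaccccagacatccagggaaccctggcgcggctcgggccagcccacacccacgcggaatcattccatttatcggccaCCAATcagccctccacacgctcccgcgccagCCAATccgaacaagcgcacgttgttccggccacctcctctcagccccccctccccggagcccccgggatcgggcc
SREBF1 (chr17:17837003-17837236, minus strand): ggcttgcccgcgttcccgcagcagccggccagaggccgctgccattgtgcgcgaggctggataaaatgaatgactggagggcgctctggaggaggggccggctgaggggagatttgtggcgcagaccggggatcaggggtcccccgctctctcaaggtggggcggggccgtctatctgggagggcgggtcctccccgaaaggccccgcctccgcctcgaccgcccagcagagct
The 6 sterol genes were picked after the windows were seen and each stretch shown holds a box, so their contrast with the SREBF1 stretch, which held 0, shows no rule: the window of CYP51A1, which also passed, held 0, and HMGCS1, IDI1 and DHCR7 each had another window with 0. The RefSeq table had promoters for 26 of the 30 genes, in 37 windows of 250 bases before to 50 after a start, since some genes have several starts. CCAAT, on either strand, was in 75.0% of the 24 sterol windows, in 46.2% of the 13 fatty acid windows and in 34.6% of all 35116 windows of the table. GGGCGG, the core of the SP1 site, was in 91.7% of the sterol windows, 76.9% of the fatty acid windows and 45.0% of all windows, but in 65.1% of the windows of genes in the expression table. TCACNCCAC, a core of the sterol regulatory element, was in 1 of the 37 windows, that of SREBF2, and in 1.13% of all windows. The shorter CACNCCAC, which overlaps it and was searched after that count was seen, was in 18.9% of the 37 windows and 5.87% of all windows. A match is a run of letters and not a bound site, and a window without one shows only that these letters are not there.

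The sterol genes were highest in the shSMARCA4 libraries and lowest in the libraries labelled shMAFK. Of the 22 sterol genes, 20 had their highest group mean in shSMARCA4 and 18 their lowest in shMAFK. The 8 fatty acid genes were less uniform: 3 had their highest mean in shSMARCA4 and 3 in shE2F6, while 4 had their lowest in shKDM1A and 3 in shMAFK.

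**Figure D1:**
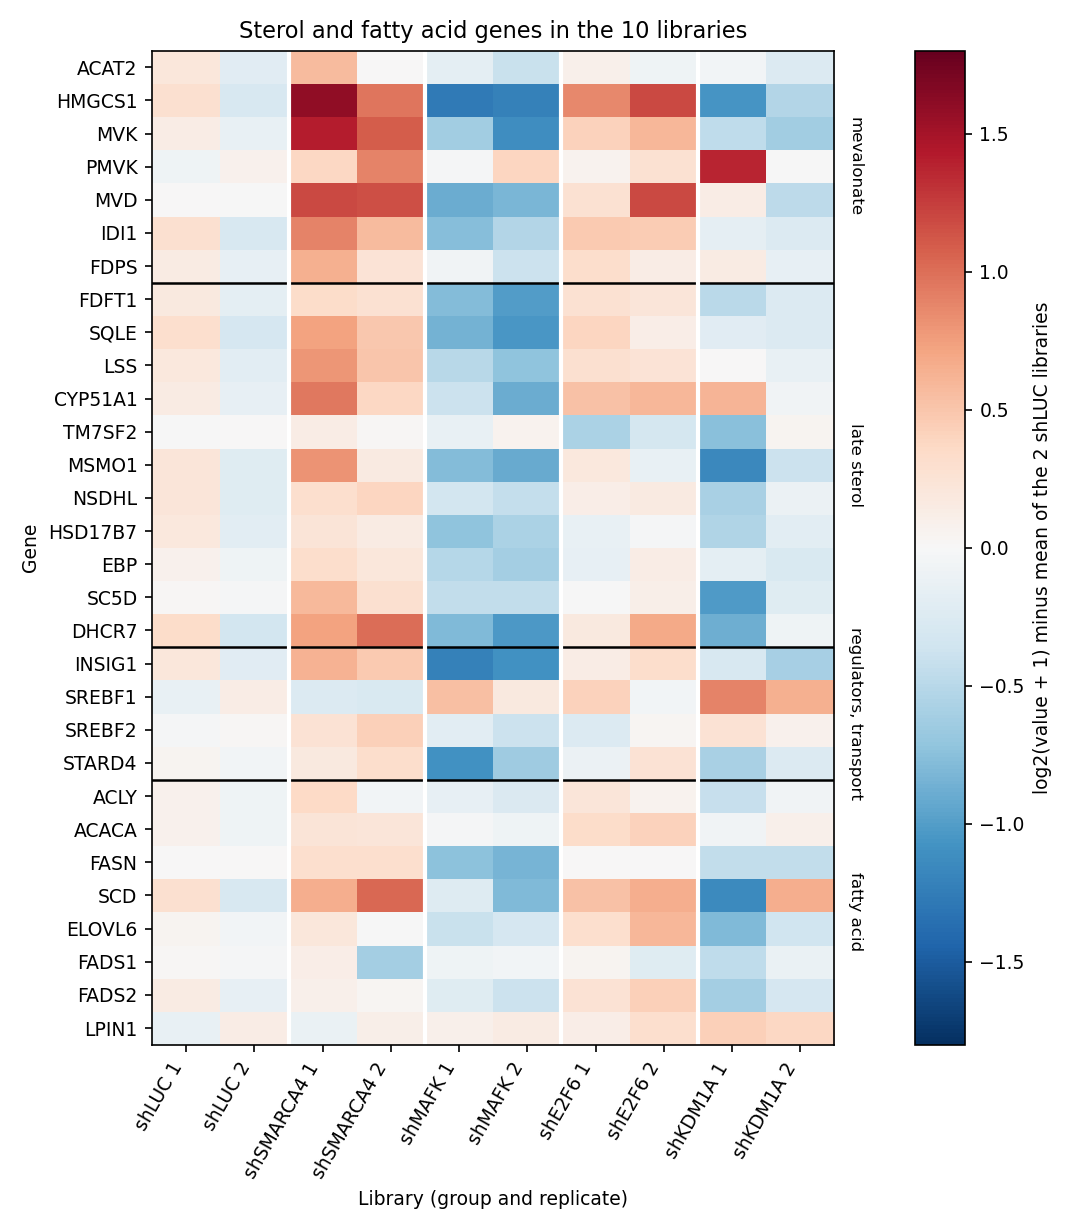
Each cell is the log2(value + 1) of a gene (rows) in a library (columns) minus the mean of the 2 shLUC libraries, with rows grouped by role and red for higher, blue for lower. Most sterol rows are red in both shSMARCA4 libraries and blue in both libraries labelled shMAFK, while PMVK, TM7SF2 and SREBF1 depart from this.

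Averaged over the 22 sterol genes, the level relative to the shLUC mean was 0.61 and 0.44 on the log2 scale in the 2 shSMARCA4 libraries and -0.54 and -0.62 in the 2 libraries labelled shMAFK. It was 0.17 and 0.28 in shE2F6, -0.23 and -0.20 in shKDM1A, and 0.13 and -0.13 in the shLUC libraries themselves. The second library labelled shMAFK, in which MAFK was not below the controls, was therefore as low as the first. The second shSMARCA4 library, in which the endoderm marker sum was 342 against 3146 in the first, had the smaller sterol average of the pair. The part of the marker genes in the sterol levels was not tested.

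Averaged over the 8 fatty acid genes, the same measure was 0.23 and 0.13 in shSMARCA4, 0.22 and 0.28 in shE2F6, -0.44 and -0.02 in shKDM1A, and -0.22 and -0.32 in the libraries labelled shMAFK. The shKDM1A libraries thus disagreed on the fatty acid branch, and shE2F6 was at the level of shSMARCA4 there, unlike in the mevalonate genes, where shSMARCA4 was at 0.95 and 0.70 and shE2F6 at 0.36 and 0.54. The first shLUC library was above the second in 18 of the 22 sterol genes, by 0.27 on the log2 scale on average, whereas over all rows it was above in 50.8%. The control libraries therefore differed in this pathway, and each comparison with shLUC carries that gap.

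**Figure D2:**
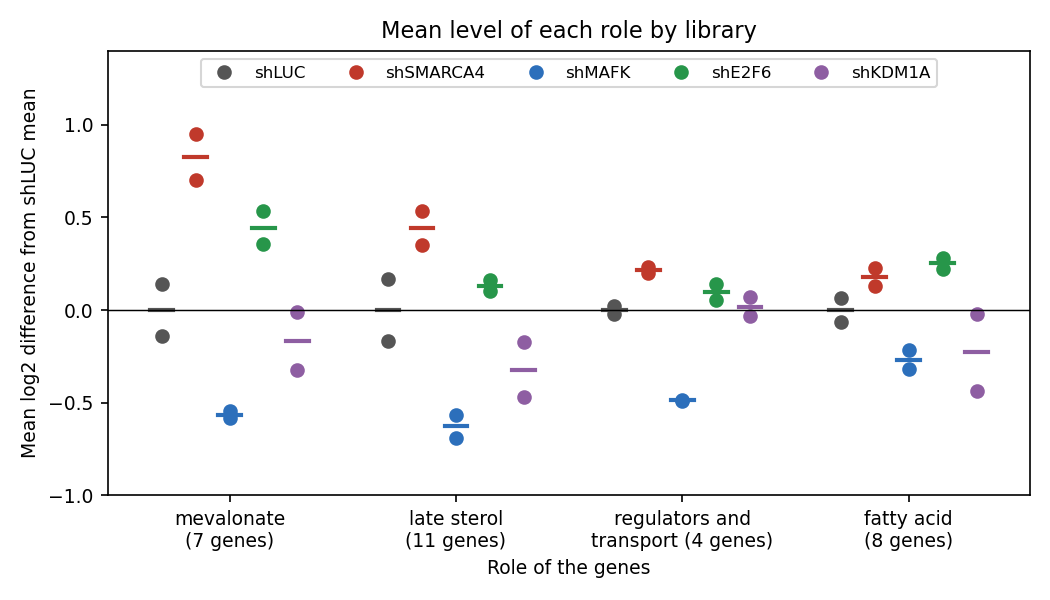
Points are libraries, and bars the mean of 2 libraries, of the average log2(value + 1) over the genes of each role minus the shLUC mean. In every role, the fatty acid genes included, both shSMARCA4 points lie above and both shMAFK points below the shLUC points. The widest distance is in the mevalonate genes.

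Against shLUC, HMGCS1 and MVK, 2 enzymes of the mevalonate pathway, rose in the SMARCA4 knockdown, and 0 members fell. These 2 of 30 passed an adjusted p of 0.05 (limma, Benjamini-Hochberg over the whole table), where 1.67% of all rows were called higher and 2.51% lower. Without a threshold, 27 of the 30 were higher; the median log2 change was 0.35 over the 30, 0.46 over the sterol genes, 0.13 over the fatty acid genes and 0.0068 over all rows. At an unadjusted p under 0.05, 10 members were higher and 0 lower, where 7.78% of all rows were higher and 8.53% lower. In 21 members both shSMARCA4 libraries lay above both controls, and in 1, SREBF1, both lay below, against 25.6% and 25.4% of all rows.

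Against shLUC, no member passed the threshold in shMAFK, where 0.0135% of all rows were called higher and 0% lower. The values nevertheless lay on 1 side: 27 of 30 were lower, with a median log2 change of -0.54 over the 30, -0.64 over the sterol genes, -0.25 over the fatty acid genes and -0.0042 over all rows. At an unadjusted limma p under 0.05, 15 were lower and 0 higher, where 4.49% and 4.27% of all rows were. Both libraries lay below both controls in 22 members, against 25.3% of all rows, and above both in 1, SREBF1, against 23.8%. Without the second library labelled shMAFK the sterol median was -0.57.

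In shE2F6 and shKDM1A no member passed either. In shE2F6, where limma called 0% of all rows higher and 0% lower, 24 of 30 members were higher, with a median log2 change of 0.21, and 4 were higher and 0 lower at an unadjusted p under 0.05, against 2.55% and 2.54% of all rows. Both shE2F6 libraries lay above both controls in 11 members and below in 1, TM7SF2, against 20.3% and 20.4% of all rows. In shKDM1A, where limma called 0.0203% of all rows higher and 0.00676% lower, 24 of 30 were lower, with a median log2 change of -0.27; at an unadjusted p under 0.05, 2 were higher and 8 lower, against 5.85% and 5.61% of all rows. Both shKDM1A libraries lay above both controls in 3 members and below in 13, against 17.9% and 20.9% of all rows. The 4 comparisons share the shLUC libraries, so likeness between them is not read as a result.

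In comparisons between knockdowns the control libraries enter the estimate of the spread but not the differences. In a moderated F-test of equality of the 4 knockdown means in limma, 12 of the 30 genes passed an adjusted p of 0.05, where 6.64% of all rows did: HMGCS1, MVK, MVD, IDI1, FDFT1, SQLE, LSS, DHCR7, INSIG1 and STARD4 of the sterol genes, and FASN and ELOVL6 of the fatty acid genes. This count fell without either library labelled shMAFK or either shSMARCA4 library, and rose without either shKDM1A library. Each such fit leaves a group without replicates, and its share of all rows passing the F-test is not given here. In the direct comparison of shSMARCA4 and shMAFK, calls over all rows fell and rose in the same fits. The shifts in the count are therefore not read as a property of the pathway.

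Of the 6 pairs of knockdowns, the one with the most members past the threshold was SMARCA4 and MAFK. Of the 30 genes, 16 were higher in shSMARCA4 at an adjusted p under 0.05, where 3.5% of all rows were, and 0 were lower, where 4.27% of all rows were. These were 15 of the 22 sterol genes and FASN. The median log2 difference was 1.15 over the sterol genes, 0.36 over the fatty acid genes and 0.0037 over all rows. Both shSMARCA4 libraries lay above both libraries labelled shMAFK in 25 of the 30 genes, against 28% of all rows. Fewer genes passed when any 1 of these 4 libraries was left out, and fewer of all rows passed in those fits as well. HMGCS1, MVK, MVD, SQLE, INSIG1 and FASN passed in all 4 fits that each left out 1 of these libraries, IDI1, FDFT1 and LSS in 3, CYP51A1, MSMO1, DHCR7 and STARD4 in 1, and HSD17B7, EBP and SREBF2 in 0.

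**Figure D3:**
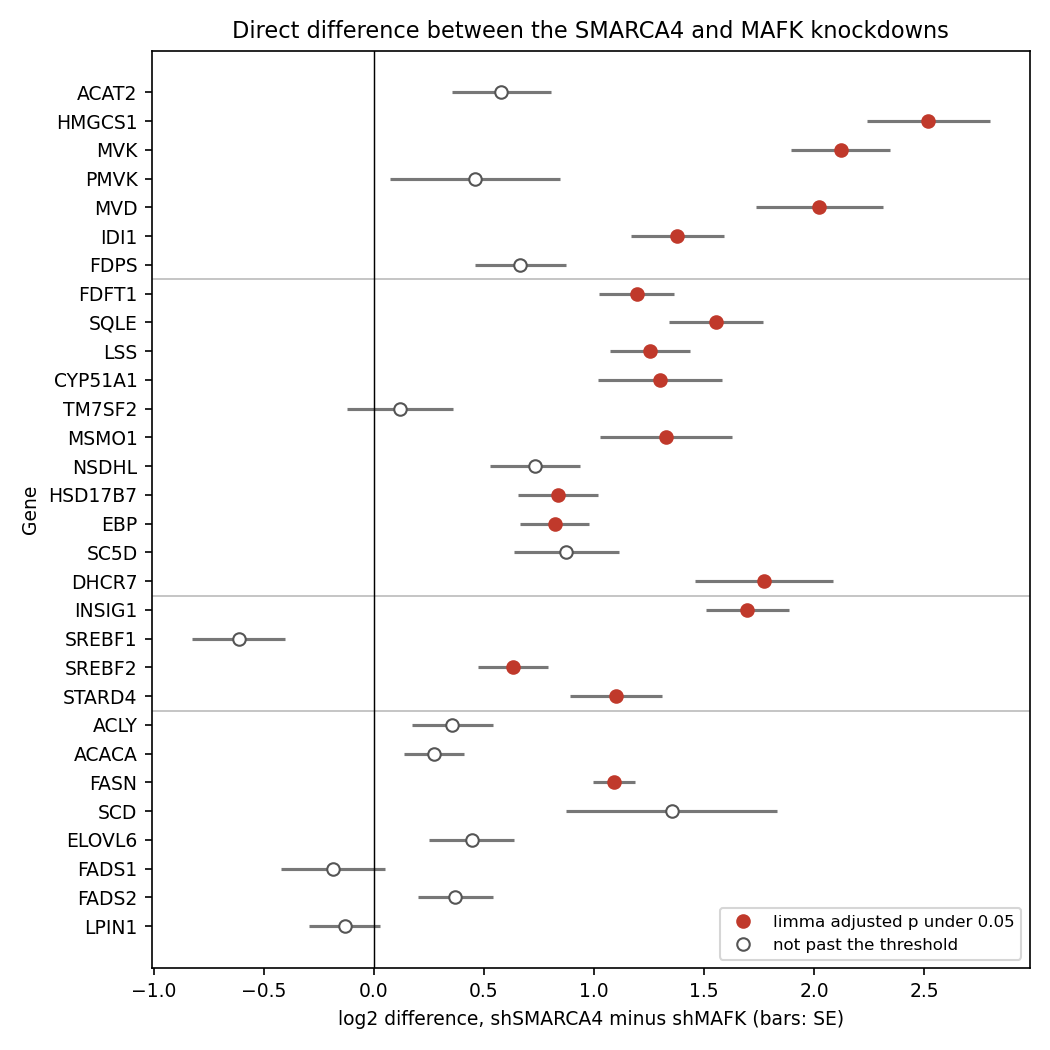
Points are log2 differences of group means, shSMARCA4 minus shMAFK, with bars of 1 standard error, and filled points passed an adjusted p of 0.05 in limma. The 16 filled points are all to the right of 0, with HMGCS1, MVK and MVD farthest, and SREBF1 is the leftmost point.

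Between the SMARCA4 and KDM1A knockdowns, 10 genes were higher in shSMARCA4 and 1, SREBF1, was lower, where 2.73% and 4.13% of all rows were called. The 10 were HMGCS1, MVK, MVD, IDI1, FDFT1, MSMO1, SC5D, DHCR7, INSIG1 and FASN. Between MAFK and E2F6 knockdowns, 5 genes, HMGCS1, MVK, FDFT1, INSIG1 and FASN, were lower in shMAFK, where 0.189% of all rows were. None passed between shSMARCA4 and shE2F6, shMAFK and shKDM1A, or shE2F6 and shKDM1A, where limma called 3.55%, 0.0406% and 0.129% of all rows in either direction. The pairs share libraries, so these counts are not independent of each other.

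The mevalonate pathway begins with acetyl-CoA. HMGCS1, the synthase that makes HMG-CoA (chr5:43289395-43313512, hg38, GENCODE 29), was listed at 4340 and 2910 in shLUC, 10757 and 6928 in shSMARCA4, 6490 and 8086 in shE2F6, 1708 and 2473 in shKDM1A, and 1476 and 1534 in shMAFK. The shSMARCA4 and shE2F6 libraries were thus all above the controls, and the shMAFK and shKDM1A libraries all below. The log2 change against shLUC was 1.28 in shSMARCA4 (adjusted p = 0.0378), -1.24 in shMAFK (0.177), 1.03 in shE2F6 (0.774) and -0.79 in shKDM1A (0.388), each with a standard error of 0.28 in limma. The direct difference between shSMARCA4 and shMAFK was 2.52 (adjusted p = 0.00144). The shSMARCA4 call was lost without the mean-variance trend (adjusted p = 0.053), with the replicate number as a block (0.0527), and without any 1 of the 4 libraries compared (0.0569 to 0.294).

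MVK, the kinase that phosphorylates mevalonate (chr12:109573255-109598117), was at 184 and 153 in shLUC, 447 and 358 in shSMARCA4, 224 and 254 in shE2F6, 122 and 108 in shKDM1A, and 108 and 77 in shMAFK. As for HMGCS1, no knockdown overlapped the controls. Its log2 change was 1.25 ± 0.23 (SE) in shSMARCA4 (limma adjusted p = 0.0179), -0.87 in shMAFK (0.242), 0.51 in shE2F6 (0.977) and -0.54 in shKDM1A (0.413), and the direct difference between shSMARCA4 and shMAFK was 2.12 (0.00119). The shSMARCA4 call was lost without any 1 of the 4 libraries (0.0644 to 0.166).

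MVD, the decarboxylase that yields isopentenyl diphosphate, was at 1132 and 1120 in shLUC, 2555 and 2506 in shSMARCA4, 1363 and 2555 in shE2F6, 1232 and 809 in shKDM1A, and 608 and 634 in shMAFK. The shE2F6 replicates were far apart, the second reaching the shSMARCA4 level. In limma the log2 change was 1.17 ± 0.29 (SE) in shSMARCA4 (limma adjusted p = 0.0606), -0.86 in shMAFK (0.397), 0.73 in shE2F6 (0.949) and -0.17 in shKDM1A (0.807), and 2.02 between shSMARCA4 and shMAFK (0.0039). IDI1, the isomerase of that product, was at 1186 and 799 in shLUC, 1809 and 1444 in shSMARCA4, 1353 and 1343 in shE2F6, 873 and 820 in shKDM1A, and 574 and 672 in shMAFK. Only shKDM1A overlapped the controls. Against shLUC the log2 change was 0.73 ± 0.21 (SE) in shSMARCA4 (limma adjusted p = 0.104), -0.65 in shMAFK (0.378), 0.47 in shE2F6 (0.977) and -0.20 in shKDM1A (0.686), and 1.38 between shSMARCA4 and shMAFK (0.00588).

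The remaining mevalonate genes differed less. FDPS, which joins the isoprene units into farnesyl diphosphate, was at 4340 and 3289 in shSMARCA4 and 2664 and 2130 in shMAFK, and ACAT2, which forms acetoacetyl-CoA, at 3874 and 2618 against 2296 and 1977; neither difference passed in limma (adjusted p = 0.0904 and 0.17). PMVK, the kinase between MVK and MVD, did not follow its neighbours in the pathway: it was at 327 and 366 in shLUC, 450 and 646 in shSMARCA4, 360 and 417 in shE2F6, 898 and 345 in shKDM1A, and 341 and 451 in shMAFK. Its largest value was in the first shKDM1A library alone.

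**Figure D4:**
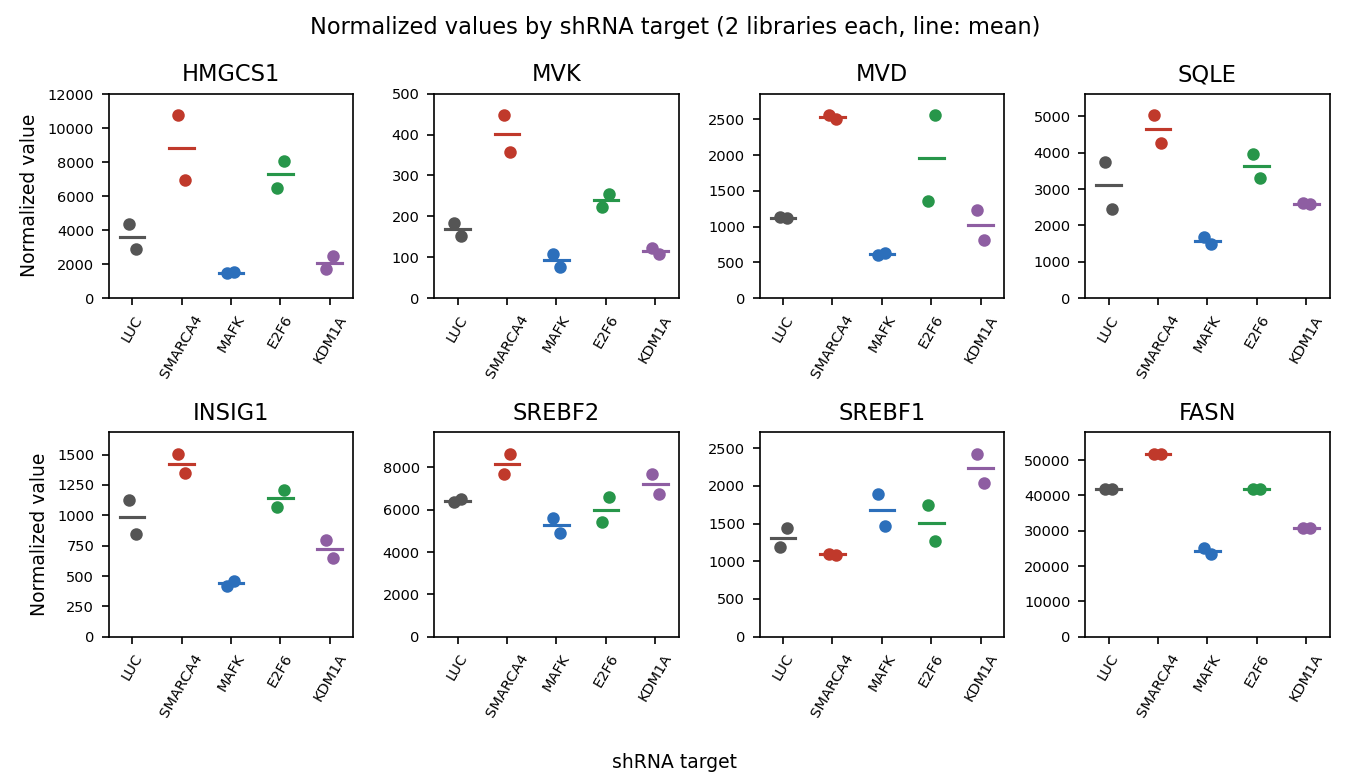
Points are the authors' normalized values of 2 libraries per shRNA target, on linear axes from 0, and lines are means. HMGCS1, MVK, MVD, SQLE, INSIG1 and SREBF2 are highest on average in shSMARCA4 and lowest in shMAFK, SREBF1 is highest in shKDM1A, and FASN takes the same value in both replicates of 4 groups.

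Of the 11 late sterol genes, from squalene to cholesterol, 8 were higher in shSMARCA4 than in shMAFK at the threshold. FDFT1, the synthase that makes squalene, was at 6928 and 5420 in shLUC, 7680 and 7440 in shSMARCA4, 7440 and 7097 in shE2F6, 4390 and 5172 in shKDM1A, and 3583 and 3046 in shMAFK. The libraries labelled shMAFK were the lowest of the 10. On the log2 scale the change was 0.30 ± 0.17 (SE) in shSMARCA4 (limma adjusted p = 0.445), -0.89 in shMAFK (0.14), 0.25 in shE2F6 (1.0) and -0.36 in shKDM1A (0.446), and 1.19 between shSMARCA4 and shMAFK (0.00383).

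SQLE, the epoxidase that oxidises squalene, was at 3755 and 2462 in shLUC, 5026 and 4261 in shSMARCA4, 3966 and 3314 in shE2F6, 2628 and 2576 in shKDM1A, and 1680 and 1476 in shMAFK. LSS, the cyclase that makes lanosterol, was at 3093 and 2381 in shLUC, 4704 and 3850 in shSMARCA4, 3314 and 3207 in shE2F6, 2740 and 2473 in shKDM1A, and 1928 and 1650 in shMAFK. In both genes shSMARCA4 was above and shMAFK below the controls, while shKDM1A overlapped them. The log2 change of SQLE was 0.61 ± 0.21 (SE) in shSMARCA4 (limma adjusted p = 0.188), -0.95 in shMAFK (0.177), 0.25 in shE2F6 (1.0) and -0.22 in shKDM1A (0.659), and 1.56 between shSMARCA4 and shMAFK (0.00342). That of LSS was 0.65 ± 0.18 (SE) in shSMARCA4 (limma adjusted p = 0.0977), -0.61 in shMAFK (0.337), 0.26 in shE2F6 (1.0) and -0.06 in shKDM1A (0.903), and 1.25 between shSMARCA4 and shMAFK (0.0045).

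CYP51A1, the lanosterol demethylase, was at 1971 and 1614 in shLUC, 3429 and 2312 in shSMARCA4, 2576 and 2712 in shE2F6, 2726 and 1712 in shKDM1A, and 1367 and 956 in shMAFK. Its shE2F6 change, 0.57 ± 0.28 (SE) on the log2 scale, was the largest of the late sterol genes in that knockdown and did not pass in limma (adjusted p = 0.987). The change was 0.66 in shSMARCA4 (0.287), -0.64 in shMAFK (0.568) and 0.28 in shKDM1A (0.679), and 1.30 between shSMARCA4 and shMAFK (0.0249). MSMO1, which removes methyl groups from the ring, was at 2758 and 2046 in shLUC, 4166 and 2664 in shSMARCA4, 2701 and 2162 in shE2F6, 1061 and 1815 in shKDM1A, and 1388 and 1270 in shMAFK. Both shMAFK and shKDM1A lay below the controls. Its log2 change was -0.78 ± 0.30 (SE) in shKDM1A (limma adjusted p = 0.407), 0.49 in shSMARCA4 (0.496), -0.84 in shMAFK (0.436) and 0.02 in shE2F6 (1.0), and 1.33 between shSMARCA4 and shMAFK (0.0293).

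DHCR7, a reductase of the end of the path to cholesterol, was at 2249 and 1414 in shLUC, 2934 and 3564 in shSMARCA4, 2022 and 2850 in shE2F6, 972 and 1696 in shKDM1A, and 1026 and 870 in shMAFK. The control replicates were far apart, and shE2F6 and shKDM1A overlapped them. Its log2 change was 0.86 ± 0.31 (SE) in shSMARCA4 (limma adjusted p = 0.201), -0.92 in shMAFK (0.409), 0.43 in shE2F6 (1.0) and -0.47 in shKDM1A (0.542), and 1.77 between shSMARCA4 and shMAFK (0.011). HSD17B7 and EBP, a ketosteroid reductase and a sterol isomerase, were also higher in shSMARCA4 than in shMAFK, by log2 differences of 0.84 (0.0253) and 0.82 (0.0155). NSDHL (0.73, 0.0622), a sterol dehydrogenase, and SC5D (0.87, 0.0599), a sterol desaturase, did not pass in that comparison. TM7SF2, a sterol reductase whose reaction another protein can also carry out, was at 728 to 880 in the shLUC, shSMARCA4 and shMAFK libraries, at 537 and 644 in shE2F6, and at 475 and 824 in shKDM1A, and its difference between shSMARCA4 and shMAFK was 0.12 (limma adjusted p = 0.85).

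Among the regulators, INSIG1, the protein that retains SREBP in the endoplasmic reticulum and is itself an SREBP target, was at 1124 and 848 in shLUC, 1505 and 1349 in shSMARCA4, 1070 and 1212 in shE2F6, 797 and 645 in shKDM1A, and 419 and 460 in shMAFK. The values in shMAFK were the lowest of all libraries. Fitted log2 changes were 0.55 ± 0.19 (SE) in shSMARCA4 (limma adjusted p = 0.177), -1.15 in shMAFK (0.14), 0.22 in shE2F6 (1.0) and -0.44 in shKDM1A (0.42), and 1.70 between shSMARCA4 and shMAFK (0.00144).

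The SREBP genes themselves did not move alike. SREBF2, which encodes the SREBP most tied to sterol genes, was at 6343 and 6490 in shLUC, 7680 and 8628 in shSMARCA4, 5420 and 6578 in shE2F6, 7680 and 6746 in shKDM1A, and 5626 and 4906 in shMAFK, and was higher in shSMARCA4 than in shMAFK by a log2 difference of 0.63 ± 0.16 (SE; limma adjusted p = 0.0418), a call lost without any 1 of these 4 libraries (0.0985 to 0.288). SREBF1, which encodes the SREBP most tied to fatty acid genes, was at 1186 and 1440 in shLUC, 1098 and 1084 in shSMARCA4, 1750 and 1266 in shE2F6, 2421 and 2039 in shKDM1A, and 1898 and 1473 in shMAFK. Its lowest values were in shSMARCA4, where most sterol genes were highest. The log2 change of SREBF1 was -0.26 ± 0.21 (SE) in shSMARCA4 (limma adjusted p = 0.639), 0.36 in shMAFK (0.73), 0.19 in shE2F6 (1.0) and 0.77 in shKDM1A (0.295). Between shSMARCA4 and shMAFK its difference was -0.62 (0.123) and between shSMARCA4 and shKDM1A it was -1.02 (0.024).

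STARD4, a carrier of sterols between membranes, was at 1132 and 1060 in shLUC, 1232 and 1362 in shSMARCA4, 1022 and 1311 in shE2F6, 732 and 922 in shKDM1A, and 516 and 706 in shMAFK. The shMAFK and shKDM1A libraries were below the controls. Relative to shLUC the log2 change was 0.24 ± 0.21 (SE) in shSMARCA4 (limma adjusted p = 0.666), -0.86 in shMAFK (0.208), 0.08 in shE2F6 (1.0) and -0.41 in shKDM1A (0.46), and 1.10 between shSMARCA4 and shMAFK (0.0147).

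In the fatty acid branch FASN, the synthase that builds palmitate (chr17:82078333-82098332), was listed at 41812 in both shLUC and both shE2F6 libraries, at 51691 in both shSMARCA4, at 25026 and 23459 in shMAFK, and at 30774 in both shKDM1A libraries. Values this high took few levels: between 20000 and 60000 the whole table held 16 distinct values, in near-equal pairs such as 41804 and 41812. Replicates of FASN were therefore identical in 4 of 5 groups and their spread is understated. The level above 41812 lay 0.306 away on the log2 scale, so the shSMARCA4 change of FASN is 1 such step. In limma its log2 change was 0.31 ± 0.10 (SE) in shSMARCA4 (limma adjusted p = 0.133), -0.79 in shMAFK (0.0619), 0 in shE2F6 (1.0) and -0.44 in shKDM1A (0.185), and 1.09 between shSMARCA4 and shMAFK (0.000606).

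SCD, the desaturase that makes oleate, was at 21314 and 14279 in shLUC, 27330 and 35716 in shSMARCA4, 25026 and 27330 in shE2F6, 7919 and 27330 in shKDM1A, and 14837 and 10074 in shMAFK. The shKDM1A replicates held the lowest value of the 10 libraries and one of the higher ones. Its fitted change on the log2 scale was 0.84 ± 0.48 (SE) in shSMARCA4 (limma adjusted p = 0.456), -0.51 in shMAFK (0.883), 0.58 in shE2F6 (1.0) and -0.25 in shKDM1A (0.839), and 1.35 between shSMARCA4 and shMAFK (0.135). ELOVL6, the elongase that follows FASN, was at 1884 and 1776 in shLUC, 2098 and 1815 in shSMARCA4, 2249 and 2782 in shE2F6, 1056 and 1428 in shKDM1A, and 1384 and 1487 in shMAFK. It was highest in shE2F6. Compared with shLUC, the log2 change was 0.09 ± 0.19 (SE) in shSMARCA4 (limma adjusted p = 0.898), -0.35 in shMAFK (0.685), 0.45 in shE2F6 (0.964) and -0.57 in shKDM1A (0.366), and the F-test among knockdowns gave an adjusted p of 0.0376.

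ACACA, the carboxylase that makes malonyl-CoA, was at 5026 and 4852 in shMAFK, 6012 and 5923 in shSMARCA4, and 6408 and 6828 in shE2F6. ACLY, which supplies acetyl-CoA from citrate, ranged from 5026 in the first shKDM1A library to 8628 in the first shSMARCA4 library. FADS2, which begins the desaturation of polyunsaturated fatty acids, ranged from 3966 in shKDM1A to 8220 in shE2F6, and FADS1, which acts later in that path, from 2340 in the second shSMARCA4 library to 3873 in the first. LPIN1, a phosphatidate phosphatase, was at 568 and 548 in shKDM1A and 386 to 520 elsewhere. None of these 5 passed in any comparison against shLUC or between knockdowns.

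Some of these values may hold reads of other genes, since exons overlap on either strand and no source used here states how such reads, or strand, were counted. In GENCODE 29, 83.2% of the exonic bases of CYP51A1 lie in exons of other annotated genes, with 3.85% on the opposite strand, and 52.3% of those of ACAT2 lie in exons of genes on the opposite strand. The shares were 18.6% for FDPS, 15.0% for HMGCS1, 14.8% for IDI1, 7.88% for LSS and 6.92% for SREBF1; 4.72% for MVK, 4.17% for FDFT1 and 3.71% for SREBF2; and 0% for MVD, SQLE, INSIG1, DHCR7 and FASN. FADS1 and FADS2 share exonic bases with each other. Pseudogenes named after the gene are annotated for FDPS, with 8, CYP51A1, with 3, HSD17B7, with 2, and SCD and FADS2, with 1 each, and how reads were divided among them is not given in the sources used here.

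Other genes of the pathways, from a list of 61 written from textbook knowledge, were measured for 59. In shSMARCA4 against shLUC, 1 was higher and 1 lower at the threshold, where 1.67% and 2.51% of all rows were, so these counts are near the background. ABCG1, a sterol exporter, was at 88 and 86 in shLUC and 29 and 34 in shSMARCA4, and fell by 1.44 ± 0.30 (SE) on the log2 scale (limma adjusted p = 0.0322). ACSL4, an acyl-CoA synthetase, was at 784 and 916 in shLUC and 1410 and 1338 in shSMARCA4, and rose by a log2 change of 0.70 ± 0.16 (SE; 0.0461). Neither group overlapped shLUC, and both calls were lost without any 1 of the 4 libraries (0.103 to 0.32). The median log2 change of the 59 was 0.04 in shSMARCA4 and -0.12 in shMAFK, against 0.35 and -0.54 for the 30 members.

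None of the 59 passed in the other knockdowns, in which an unadjusted limma p under 0.05 was found for 5 higher and 8 lower genes in shMAFK (4.27% and 4.49% of all rows), 5 higher and 0 lower in shE2F6 (2.55% and 2.54%), and 4 higher and 3 lower in shKDM1A (5.85% and 5.61%, so near the background). Among the smallest unadjusted p in shMAFK were those of ACSS2, the cytosolic acetyl-CoA synthetase (348 and 247 against 728 and 646 in shLUC; log2 change -1.22 ± 0.24 SE, adjusted p = 0.14), and ACSL1 (158 and 203 against 331 and 280; -0.76 ± 0.18 SE, 0.192). In shE2F6 they were those of ACSL4 (1461 and 1792; 0.93 ± 0.16 SE, 0.28), MBTPS2, a protease that releases SREBP (326 and 400 against 224 and 238; 0.64 ± 0.20 SE, 0.884), and ACSL1 (410 and 436; 0.47 ± 0.18 SE, 0.939). In shKDM1A they included those of ACSL4 (1450 and 1388; 0.74 ± 0.16 SE, 0.185) and MBTPS2 (296 and 401; 0.58 ± 0.20 SE, 0.375). Each of these groups lay apart from the 2 shLUC libraries.

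Between the SMARCA4 and MAFK knockdowns, 6 of the 59 were higher and 3 lower in shSMARCA4, where 3.5% and 4.27% of all rows were, so the count of those lower is near the background. Of those higher, ACSS2 was at 1084 and 1264 in shSMARCA4 and 348 and 247 in shMAFK (log2 difference 1.99 ± 0.24 SE, limma adjusted p = 0.00204). LPIN3, a phosphatidate phosphatase, differed by 1.60 (0.0117) and PNPLA3, a lipid hydrolase, by 0.60 (0.0462). The 3 that were lower included 2 sterol exporters: ABCA1 was at 260 and 322 in shSMARCA4 against 528 and 881 in shMAFK (-1.23 ± 0.25 SE, 0.0189), ABCG1 differed by -1.36 (0.0267), and FADS3, a member of the desaturase family, by -0.92 (0.0406). Groups did not overlap in any of these genes whose values are given here.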

How the data were processed

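RNA-seq of 10 libraries was analysed from 1 deposited table, whose values are a score: whole-number normalized values per gene or repeat row made by the authors. Per the submitters' processing notes, hg38, STAR and STARsolo were named, with no role or order; the counter, annotation and normalization are not given in the sources used here. The values are no raw counts, so no count test was run. Here log2(value + 1) of the 14785 rows with a mean of at least 10 (no row was lost) was fitted in limma 3.58.1 (R 4.3.3) with group means of all 5 groups, a mean-variance trend and 5 residual degrees of freedom; 2-sided p-values were adjusted by Benjamini-Hochberg over all rows, threshold 0.05. Fold changes understate those of low genes. The fit was tested on simulated data. Tables and figures used Python 3.11.15, pandas 2.3.3 and matplotlib 3.10.9; all columns of the table were mapped.

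The 30 genes, the role lists and the list of other pathway genes were chosen with earlier results of these data known. Full values are given for members past the threshold in any comparison with shLUC or in the F-test, those with a log2 change of at least 1, and the member of each role with the largest change in each knockdown; of other pathway genes, those past the threshold or, in a knockdown with none, the 3 with the smallest p. Some genes that this rule names are not reported here. Of 10 pairs of groups, deviations of same-numbered libraries correlated at over 0.1 in 2 (range -0.0503 to 0.337), so the numbers were not taken to pair libraries. These 2 were shSMARCA4 with shE2F6, at 0.337, and shLUC with shMAFK, at 0.106. The direct comparison of shSMARCA4 and shE2F6 leaves that likeness out. Alternatives were other pseudocounts, filters, normalizations, variance models, sets of libraries and a replicate block.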

Additional observations from a re-analysis of the deposited data

How the results depend on the processing

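With 2 libraries a group and unknown depth, single calls were fragile. None of the medians, and none of the 4 genes called against shLUC, changed sign under the alternatives run. Filters, variance models, the replicate block and dropping groups not compared cannot move a difference of group means here. The sterol median in shSMARCA4 was 0.4642 in those fits as in the main fit. Mainly the fits without 1 library could therefore have changed a sign. FADS1, not called, changed sign between shSMARCA4 and shMAFK in 1 of the 16 fits, from -0.19 to 0.18. The cause of the changes below was not tested except where fewer libraries were fitted. Of the members in shSMARCA4 against shLUC, 2 passed as reported, 1 without a mean-variance trend, 5 with a weight for each group and 4 without both shKDM1A libraries, and 0 to 4 when 1 library was left out. The other pathway genes there numbered 2 as reported, 1 with rows of mean at least 100, with quantile normalization or without the trend, 4 with group weights, without both shKDM1A libraries or with only the 2 groups compared, and 0 to 4 when 1 library was left out. In shMAFK, members passing were 0 as reported, 1 with quantile normalization or with only the 2 groups compared, 2 without both shKDM1A libraries and 10 with group weights, and 0 to 2 when 1 library was left out; other pathway genes were 6 with group weights. In shE2F6, 1 other pathway gene passed with group weights. The shKDM1A counts that follow are highest in a fit that leaves 1 library in that group. Calls rose over the whole table in that fit, so these counts do not single out the pathway. In shKDM1A, 0 to 10 members and 0 to 14 other pathway genes passed when 1 library was left out, the highest counts being without the second shKDM1A library. Members past the F-test numbered 12 as reported, 19 with group weights and 4 to 25 when 1 library was left out, and those higher in shSMARCA4 than in shMAFK 16 as reported and 8 to 20. With group weights, 6.61% of all rows were higher in shSMARCA4 than in shMAFK, against 3.5% as reported. Calls over all rows in that comparison also fell or rose when 1 library was left out. For the F-test, the share of all rows in these fits is not given here. The shifts in both counts are therefore not read as a property of the pathway. Leaving out 1 library, the median log2 change of the sterol genes ranged over 0.32 to 0.60 in shSMARCA4 and -0.81 to -0.48 in shMAFK. It ranged over 0.050 to 0.37 in shE2F6 and -0.47 to -0.15 in shKDM1A. That of the fatty acid genes in shKDM1A ranged over -0.45 to -0.091. For shE2F6 the shLUC libraries decided the sterol median: 0.37 without the first and 0.050 without the second. Over all rows, 618 passed in shSMARCA4 as reported and 1306 with group weights, 1162 without both shKDM1A libraries and 89 to 1152 when 1 library was left out; in shMAFK 2 passed as reported and 487 with group weights. The alternative without the first shKDM1A library in comparisons of other groups, and all alternatives for the direct difference between shSMARCA4 and shMAFK, were chosen after seeing the data.

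With the replicate number as a block, 2 members passed in shSMARCA4, 0 in each other knockdown and 13 in the F-test. Between shSMARCA4 and shMAFK 17 were higher in shSMARCA4, where 3.89% of all rows were. HMGCS1 in shSMARCA4 did not pass (limma adjusted p = 0.0527), and no other named call against shLUC was lost. The libraries share only a number.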

Other observations

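A few lipid genes outside the members also differed between knockdowns. ACSL1, an acyl-CoA synthetase, was listed at 331 and 280 in shLUC, 224 and 244 in shSMARCA4, 410 and 436 in shE2F6, 230 and 255 in shKDM1A, and 158 and 203 in shMAFK, so shE2F6 was the highest group and shSMARCA4 lay below the controls. Its log2 difference was -0.85 between shSMARCA4 and shE2F6 (limma adjusted p = 0.0367) and -1.24 between shMAFK and shE2F6 (0.0425). LPIN3 was at 130 and 135 in shLUC, 318 and 257 in shSMARCA4, and 86 to 142 in the other 3 knockdowns, and was higher in shSMARCA4 than in shMAFK (0.0117), shE2F6 (0.0393) and shKDM1A (0.0237). AGPAT2, an acyltransferase of phosphatidate synthesis, was at 308 and 214 in shMAFK, 440 and 472 in shSMARCA4, and 507 and 686 in shE2F6, with an F-test adjusted p of 0.0436 among knockdowns.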
